A study of Arabidopsis thaliana with 8 samples.

Results

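The genes described here are the 55 nuclear genes of Arabidopsis thaliana whose probes gave the brightest signal on the arrays, among probes that the platform annotation pairs with exactly 1 gene. RNA of wild-type plants (WT) and of the tic40 mutant, both in ecotype Columbia 0, was hybridised to 1-colour arrays, with 4 samples of each genotype numbered 1 to 4. The tissue, the plants' age, the growth conditions and the tic40 allele are not given in the labels, and nothing says that the samples came from separate plants, so the spread behind each p-value may be technical. In bulk RNA, fewer cells of a type and less RNA per cell cannot be told apart. After quantile normalization of the 8 arrays, 332 probes had a mean at or above 1.93, the 90th percentile of the 3318 probes above 0 on any array. Of these 332, 60 carried 1 gene name, 80 carried several and 192 carried none. The 5 genes LHB1B2, PSBW, PSBY, PSB27 and NdhS, which belong to the photosystems and the NDH complex, were left out, and 55 genes of the 3439 probes on the array remained. The 55 were chosen by their levels, so the levels are a description and are not tested.

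TIC40 sits at the inner envelope of the chloroplast and helps to draw imported proteins into the stroma. Most chloroplast proteins are encoded in the nucleus, made in the cytosol as precursors and imported through the translocons of the outer and inner envelope (TOC and TIC). A mutant in this pathway can therefore be asked whether the transcripts of nuclear genes are at another level, which is the question of the comparison below.

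Brightness is a property of each probe as well as of its transcript, so the order of the 55 genes by signal is no order of transcript number. Several lie in families whose transcripts are usually scarce, such as the pentatricopeptide repeat (PPR) proteins. They are therefore called bright named genes and not abundant transcripts. Whether the platform annotation gives each probe its right gene could not be checked. The annotation gives a locus number alone for 51 of the 55. What their products are is stated below as background knowledge, and 12 were put in a class of products not known, of which 7 are given no product here. All 55 are listed as protein-coding in the TAIR10.1 gene table, and all had signal above 0 on all 8 arrays.

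The WT arrays did not form 1 group. Over the 55 genes, log2 signals of WT samples 1 and 2 correlated with those of WT samples 3 and 4 at 0.646 to 0.650, and with those of the tic40 samples at 0.907 to 0.942. Within the WT pairs r was 0.983 and 0.994, and among the tic40 samples it was 0.965 to 0.996. For the other WT pair against tic40, r was 0.630 to 0.679. The same division was present over all 3318 probes, where the WT pairs correlated at 0.707 to 0.722. These correlations are across probes of the same arrays and describe the arrays only. The labels name no difference between WT samples 1 and 2 and WT samples 3 and 4, so what part this division has in the results was not tested, and each genotype difference that passed is read beside its value in samples 1 and 2 alone and in samples 3 and 4 alone.

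**Figure D1:**
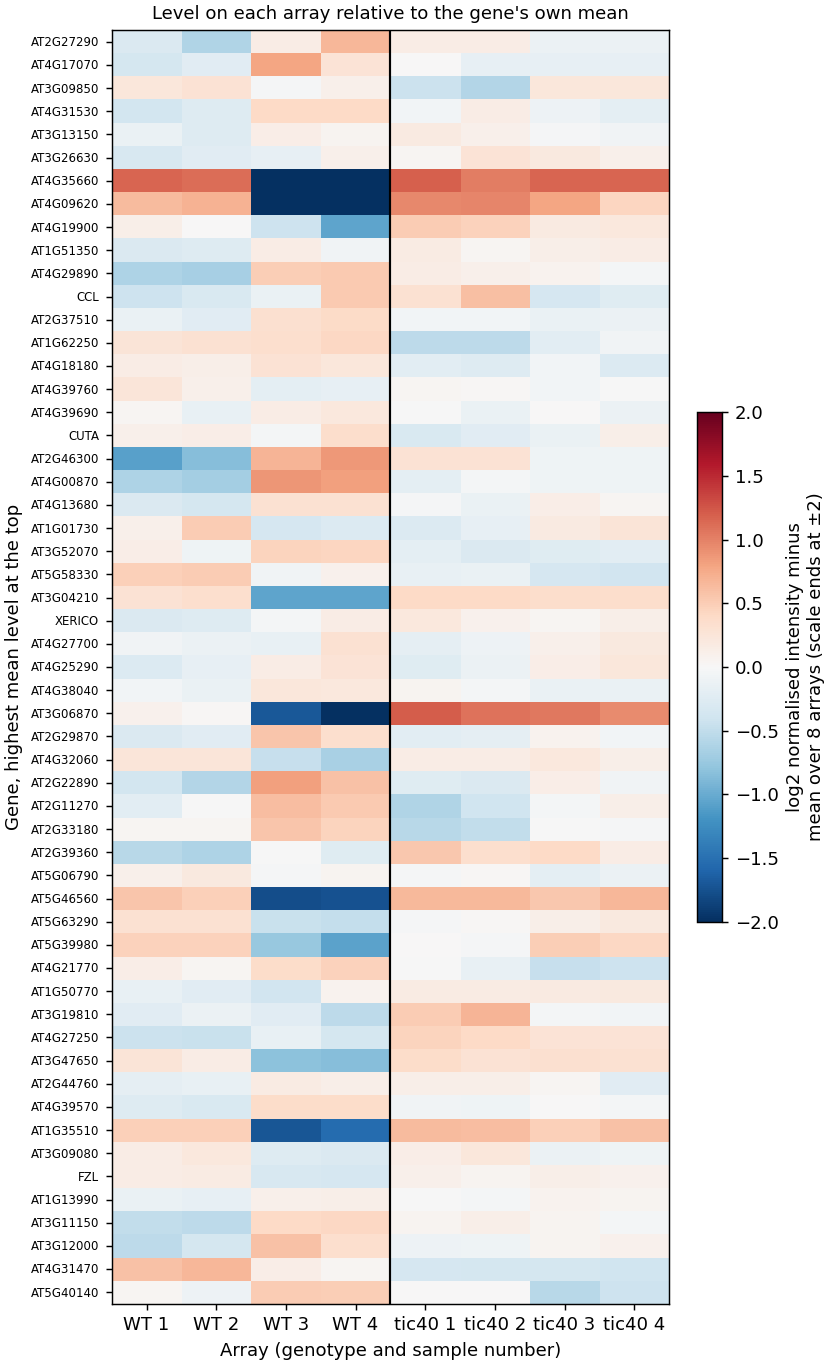
Heat map of the 55 bright named genes (rows, highest mean level at the top) on the 8 arrays (columns). Colour is the log2 normalised intensity minus the gene's own mean over 8 arrays, red above and blue below, with the scale ending at ±2. The darkest blue cells lie in the columns of WT samples 3 and 4, and the 4 tic40 columns vary less.

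Levels of the 55 genes ran from 45.5 to 1.94, as means of normalised intensity over 8 arrays, with a median of 2.90. Only 6 genes had a mean above 10, 7 lay between 5 and 10, and 42 lay below 5.

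The brightest probe was that of AT2G27290, which encodes a protein with a DUF1279 domain. Its levels were 36.3, 29.0, 49.2 and 70.0 in WT samples 1 to 4 and 49.2, 49.2, 40.8 and 40.8 in tic40 samples 1 to 4. The tic40 values lay inside the WT range, and the log2 difference, tic40 minus WT, was 0.04 (95% interval -0.59 to 0.66, limma adjusted p = 0.947). AT4G17070, which encodes a peptidyl-prolyl isomerase family protein, stood at 31.7, 34.5, 70.0 and 49.2 in WT and at 40.8, 36.3, 36.3 and 36.3 in tic40. WT samples 3 and 4 were its highest arrays, and the groups overlapped (-0.24, adjusted p = 0.593).

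AT3G09850, a G-patch domain protein gene, measured 34.5, 36.3, 29.0 and 31.7 in WT and 21.9, 19.8, 34.5 and 34.5 in tic40. Here tic40 samples 1 and 2 were the low arrays (-0.29, adjusted p = 0.452). AT4G31530, which encodes a Rossmann-fold NAD(P)-binding protein, measured 20.3, 21.9, 34.5 and 34.5 in WT and 25.2, 29.0, 24.4 and 22.9 in tic40 (-0.09, adjusted p = 0.814). The same numbers recur among these 4 genes because quantile normalization gives 1 value to each rank, and their probes were among the 16 brightest of every array. On the deposited scale AT2G27290 measured 47.1, 34.5, 47.9 and 57.0 in WT and 43.1, 41.8, 37.9 and 38.3 in tic40, again with overlapping groups.

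Both PPR genes that came next, AT3G13150 and AT3G26630, encode members of a family that binds organelle RNA. AT3G13150 measured 10.2, 9.31, 12.2 and 11.5 in WT and 12.6, 11.9, 11.0 and 10.6 in tic40 (log2 difference 0.10, adjusted p = 0.698). AT3G26630 measured 8.32, 8.87, 9.31 and 11.2 in WT and 10.7, 12.6, 11.9 and 11.2 in tic40 (0.31, adjusted p = 0.228). The tic40 values of AT3G13150 lay above WT samples 1 and 2 and overlapped with WT samples 3 and 4, and those of AT3G26630 overlapped with WT sample 4 alone.

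Among the other bright genes, AT4G19900, a glycosyltransferase gene, measured 6.65, 6.15, 4.58 and 2.94 in WT and 8.66, 8.40, 6.89 and 7.07 in tic40. All tic40 samples lay above all WT samples, and the log2 difference of 0.67 did not pass over the 8 arrays (SE 0.27, adjusted p = 0.171). AT1G51350, an armadillo repeat protein gene, measured 5.14, 5.26, 6.98 and 5.97 in WT and 7.07, 6.45, 6.80 and 6.98 in tic40, where the groups overlapped in WT sample 3 (0.24, adjusted p = 0.342).

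At the lower edge, the last genes included were AT5G40140, a U-box protein gene (mean 1.94), AT4G31470 (1.98) and AT3G12000, an S-locus related gene (1.99). The first not included were DRT101 (1.93), AT2G19870 (1.93) and AT1G50880 (1.91), so the threshold divides genes of nearly equal signal. AT3G12000 measured 1.35, 1.52, 2.92 and 2.44 in WT and 1.80, 1.83, 2.02 and 2.06 in tic40, with tic40 inside the WT range (-0.02, adjusted p = 0.970). AT5G40140 measured 1.94, 1.74, 2.67 and 2.65 in WT and 1.89, 1.89, 1.29 and 1.42 in tic40 (-0.47, adjusted p = 0.223).

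The comparison of genotypes called 3 of the 55 genes, 1 higher and 2 lower in tic40. The higher gene was AT4G27250, which encodes a protein like dihydroflavonol reductases, and the lower genes were AT1G62250, whose product is not named here, and AT4G31470, which encodes a secreted protein of the CAP family that includes the pathogenesis-related PR-1 proteins. The fit was limma's over all 3318 probes, with Benjamini-Hochberg adjustment, and a gene was called where the adjusted p was below 0.05. Over all probes it called 7.69%, with 2.32% higher and 5.36% lower, so the 3 of 55 (5.45%) lie below that share. An unadjusted p under 0.05 was found for 13 of the 55 genes (23.6%) and for 24.2% of all probes. The median log2 difference was 0.02 for the 55 genes and -0.06 for all probes, and 39 of the 55 genes differed by less than 0.5.

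AT4G27250 measured 1.59, 1.58, 1.93 and 1.69 in WT and 2.91, 2.82, 2.59 and 2.59 in tic40. Every tic40 sample lay above every WT sample. It rose from 1.70 ± 0.162 to 2.73 ± 0.163 (SD, n = 4 each), a fold of 1.61 (log2 difference 0.69, SE 0.13, limma adjusted p = 0.0224). The difference was 0.85 in samples 1 and 2 alone and 0.52 in samples 3 and 4 alone. The call was lost in the fit blocked by sample number, the replicate block (limma adjusted p = 0.0775), and with the pairs averaged within each genotype (adjusted p = 0.885). It was also lost without scaling between arrays (0.75, adjusted p = 0.0651) and with arrays centred on the median (0.40, adjusted p = 0.0936). Leaving out WT sample 4 (adjusted p = 0.0528) or tic40 samples 1 to 4 in turn (adjusted p = 0.0785, 0.0742, 0.0719 and 0.0678) lost it too.

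AT1G62250 measured 5.19, 5.36, 5.50 and 5.81 in WT and 3.02, 3.02, 3.77 and 4.15 in tic40. The WT samples, the pairs included, lay close together here and all above tic40. It fell from 5.46 ± 0.264 to 3.49 ± 0.563 (SD, n = 4 each; log2 difference -0.66, SE 0.15, limma adjusted p = 0.0384). The difference was -0.80 in samples 1 and 2 and -0.52 in samples 3 and 4. The call was kept without scaling (-0.71, adjusted p = 0.0405) and with median centring, where the difference was larger (-1.06, adjusted p = 0.0393). It was lost with the replicate block (adjusted p = 0.0769) and with the pairs averaged within each genotype (adjusted p = 0.885). It was also lost when any 1 of the 8 samples was left out (adjusted p of 0.0593 to 0.118).

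AT4G31470 measured 2.86, 3.0, 2.09 and 1.96 in WT and 1.51, 1.49, 1.49 and 1.45 in tic40. The tic40 samples were nearly equal and lay below both WT pairs. It fell from 2.48 ± 0.529 to 1.48 ± 0.0270 (SD, n = 4 each; log2 difference -0.71, SE 0.17, limma adjusted p = 0.0479). In samples 1 and 2 the difference was -0.96, and in the other pair -0.46. The replicate block raised the adjusted p to 0.0874, and averaging the pairs within each genotype raised it to 0.885. It was 0.0536 with median centring, 0.0767 with cyclic loess and 0.0519 without the filter on dim probes. When any 1 of the 8 samples was left out, it was 0.0513 to 0.126. With the replicate block the lowest adjusted p among the 55 genes was 0.0769, so none was called. An unadjusted p under 0.05 in that fit was found for 14 of the 55 genes and for 884 of all 3318 probes.

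**Figure D2:**
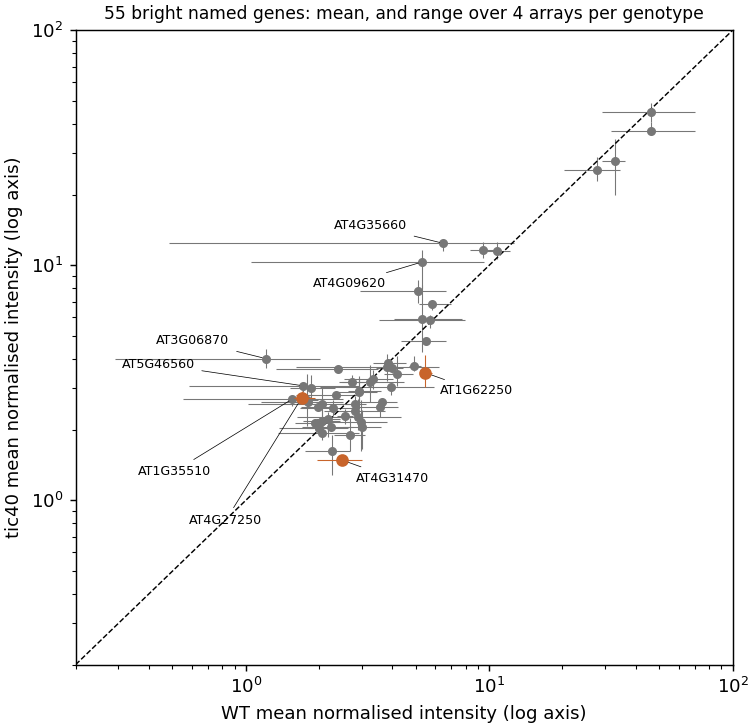
Mean normalised intensity in tic40 (vertical, log axis) against WT (horizontal, log axis) for the 55 bright named genes, with lines from the lowest to the highest of 4 arrays. The 3 genes called by limma are orange, the dashed line marks equal levels, and the longest lines are the WT ranges of AT4G35660, AT4G09620 and AT3G06870.

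The 4 arrays of one genotype lay wholly on one side of the other in 15 genes. In 8 genes tic40 was above WT (14.5%, against 8.41% of all probes) and in 7 below (12.7%, against 12.6%). The 8 genes were AT4G27250, AT4G19900, AT3G06870, AT3G04210, AT2G39360, AT1G50770, AT3G19810 and AT3G47650. Of those not called, AT2G39360, a receptor-like kinase gene, came nearest to a call (log2 difference 0.71, limma adjusted p = 0.0533). It measured 1.58, 1.52, 2.33 and 1.97 in WT and 3.40, 2.93, 3.07 and 2.59 in tic40.

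The 7 genes with tic40 below WT were AT1G62250, AT4G31470, AT4G18180, AT3G52070, AT5G58330, AT2G33180 and AT4G21770. AT4G18180, which encodes a pectin lyase-like protein of the polygalacturonase family, measured 4.75, 4.67, 5.26 and 5.03 in WT and 3.72, 3.57, 4.11 and 3.55 in tic40 (-0.40, adjusted p = 0.0915). AT5G58330 encodes the NADP-dependent malate dehydrogenase of plastids, which turns surplus reducing power into malate for export. It measured 4.11, 4.23, 2.83 and 3.13 in WT and 2.67, 2.69, 2.35 and 2.27 in tic40, with the lower WT pair close to tic40 (-0.50, adjusted p = 0.128).

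AT2G33180, with no product given here, measured 2.53, 2.5, 3.60 and 3.34 in WT and 1.66, 1.74, 2.43 and 2.41 in tic40. Within each pair of samples its tic40 values were the lower ones (-0.54, adjusted p = 0.156). AT4G21770, a pseudouridine synthase family gene, measured 2.46, 2.31, 2.89 and 3.08 in WT and 2.23, 2.02, 1.62 and 1.68 in tic40 (-0.51, adjusted p = 0.111).

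**Figure D3:**
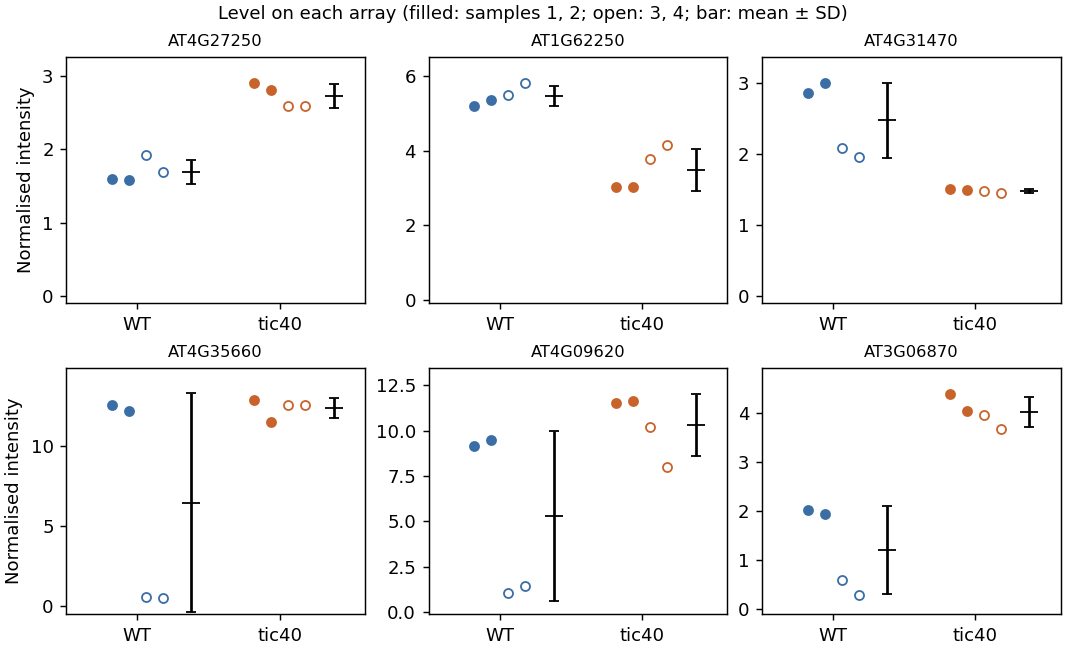
Normalised intensity on each array for the 3 genes called between genotypes (upper row) and 3 of the genes that were low in WT samples 3 and 4 (lower row). Filled points are samples 1 and 2, open points samples 3 and 4, and bars give mean ± SD over 4 arrays. In the lower row the open WT points lie far below the filled ones.

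The 6 largest positive differences belonged to genes with their lowest signal in WT samples 3 and 4. In 6 of the 55 genes both of these arrays lay more than 2-fold below all 6 other arrays, and in 0 genes more than 2-fold above them. Together that is 10.9% of the genes, against 9.61% of all probes. AT4G35660, which encodes a DUF241 protein, measured 12.6, 12.2, 0.583 and 0.486 in WT and 12.9, 11.5, 12.6 and 12.6 in tic40. WT samples 1 and 2 were thus at the tic40 level. The log2 difference over all arrays, 2.27 with SE 1.14 (adjusted p = 0.259), was -0.02 in samples 1 and 2 (adjusted p = 0.863) and 4.57 in samples 3 and 4 (adjusted p = 0.00257).

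AT4G09620, which encodes an mTERF protein, of a family that acts on transcription and RNA in organelles, measured 9.15, 9.5, 1.06 and 1.45 in WT and 11.5, 11.6, 10.2 and 7.97 in tic40. Its log2 difference of 1.59 (adjusted p = 0.235) came from 0.31 in samples 1 and 2 and 2.87 in samples 3 and 4. AT5G46560, a Man1-Src1p domain protein gene, measured 2.92, 2.77, 0.582 and 0.597 in WT and 3.11, 3.14, 2.89 and 3.15 in tic40 (1.25, adjusted p = 0.228). AT1G35510, an O-fucosyltransferase family gene, had the same pattern, with 2.52, 2.51, 0.550 and 0.619 in WT and 2.79, 2.77, 2.51 and 2.70 in tic40 (1.15, adjusted p = 0.232). In both genes WT samples 1 and 2 overlapped with tic40 or lay just below it.

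AT3G04210, which encodes a TIR-NBS protein of the disease resistance family, measured 3.39, 3.51, 1.34 and 1.34 in WT and 3.67, 3.67, 3.55 and 3.57 in tic40 (0.75, adjusted p = 0.240). AT3G06870, a proline-rich protein gene, differed from the other 5 in that both WT pairs lay well below tic40. It measured 2.01, 1.94, 0.589 and 0.291 in WT and 4.39, 4.04, 3.95 and 3.67 in tic40, with a log2 difference of 2.15 (SE 0.60, 95% interval 0.76 to 3.53, adjusted p = 0.0693). The difference was 1.09 in samples 1 and 2 (adjusted p = 0.0145) and 3.20 in samples 3 and 4 (adjusted p = 0.00709). Over the 8 arrays it passed when the table was not scaled (2.21, limma adjusted p = 0.0411). It also passed when WT sample 2 was left out (2.51, adjusted p = 0.0495). With median centring (1.86, adjusted p = 0.161), cyclic loess (2.10, adjusted p = 0.115) and the replicate block (adjusted p = 0.0909) it did not pass.

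**Figure D4:**
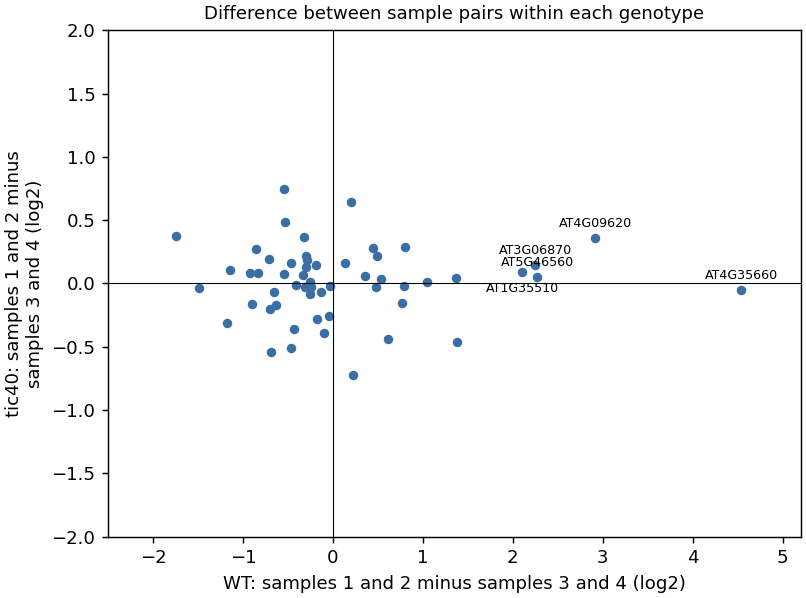
Difference between samples 1 and 2 and samples 3 and 4 (log2 of normalised intensity) within WT (horizontal) and within tic40 (vertical) for the 55 bright named genes, 1 point per gene. Points spread along the WT axis to 4.54 for AT4G35660, while all lie within 0.744 of 0 on the tic40 axis.

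The WT pairs differed by over 2-fold in 12 genes. In 8 of them samples 1 and 2 were higher, the 6 just named together with AT5G39980 and AT3G47650, and in 4 samples 3 and 4 were higher. The tic40 pairs differed by over 2-fold in 0 genes, and by at most 0.74 on the log2 scale, in CCL, a light-regulated transcript with a daily rhythm. The median absolute difference between pairs was 0.53 in WT and 0.16 in tic40. For all probes the corresponding medians were 0.68 and 0.24, and 32.8% of all probes differed by over 2-fold between the WT pairs, against 21.8% of the 55 genes. The SD over 4 arrays on the log2 scale was larger in WT than in tic40 for 46 of the 55 genes (83.6%, against 79.8% of all probes).

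The 4 genes that were higher in WT samples 3 and 4 were AT2G46300, AT4G00870, AT2G22890 and AT4G29890. AT2G46300, which encodes a hydroxyproline-rich glycoprotein of the LEA family, measured 1.62, 1.90, 5.48 and 6.23 in WT and 4.17, 4.20, 3.23 and 3.23 in tic40. AT4G00870, a bHLH transcription factor gene, measured 2.10, 2.02, 5.93 and 5.68 in WT and 2.82, 3.16, 3.06 and 3.06 in tic40. In both genes all tic40 samples lay between the WT pairs, so that the genotype difference was positive in samples 1 and 2 (1.26 and 0.53) and negative in samples 3 and 4 (-0.86 and -0.93).

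In samples 1 and 2 alone, limma called 19 of the 55 genes (34.5%, against 30.5% of all probes), and in samples 3 and 4 alone it called 33 (60.0%, against 60.3%). With 2 arrays a genotype, such a fit holds no spread other than that within a pair. Called higher in tic40 in both pairs were 3 genes (5.45%, against 4.07% of all probes), AT4G19900, AT3G06870 and AT4G27250. Called lower in both were 5 (9.09%, against 6.27%), AT1G62250, AT4G18180, AT5G58330, AT2G33180 and AT4G31470. Another 5 were called in opposite directions (9.09%, against 7.38%), namely AT4G29890, AT2G46300, AT4G00870, AT5G39980 and AT3G11150. The sign of the difference was the same in both pairs for 25 of the 55 genes (45.5%) and for 52.7% of all probes.

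**Figure D5:**
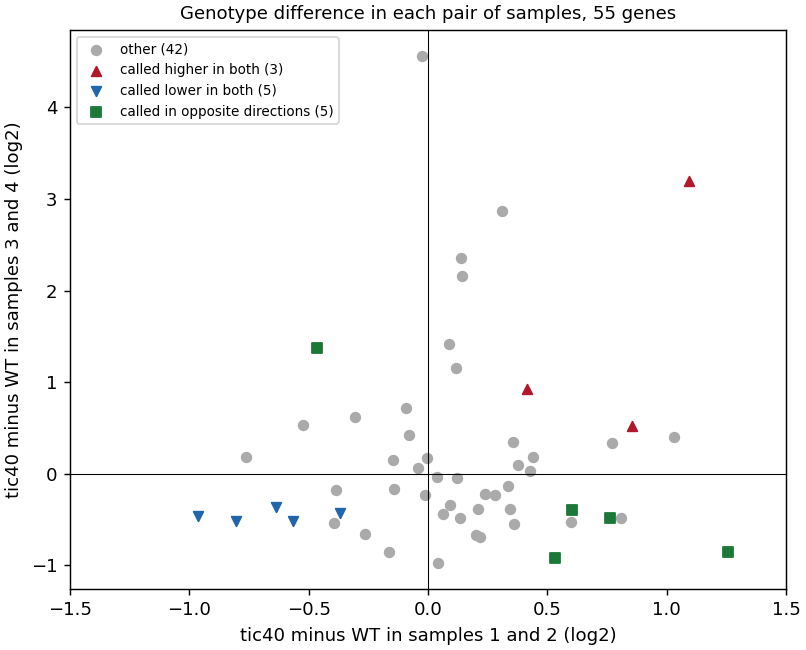
Log2 difference tic40 minus WT in samples 1 and 2 (horizontal) and in samples 3 and 4 (vertical) for the 55 bright named genes, 1 point per gene. Red triangles were called higher in both pairs (3), blue triangles lower in both (5) and green squares in opposite directions (5). The points of samples 3 and 4 reach 4.57, while those of samples 1 and 2 stay within 1.26 of 0.

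By function, the genes fell into 8 classes, which were put together with the values known. The class of organelle gene expression held 5 genes, the 3 PPR genes AT3G13150, AT3G26630 and AT5G39980, the mTERF gene AT4G09620 and the DUF177 gene AT3G19810. None of the 5 passed the test. All 5 had positive differences, with a median of 0.45 against -0.06 for all probes, but AT3G13150 (-0.60) and AT3G26630 (-0.33) were negative with arrays centred on the median, and AT3G13150 was negative as deposited (-0.25). AT5G39980 measured 2.98, 2.97, 1.28 and 1.03 in WT and 2.18, 2.12, 3.04 and 2.89 in tic40, so its difference (0.45, adjusted p = 0.493) was -0.47 in samples 1 and 2 and 1.37 in samples 3 and 4. AT3G19810 measured 1.83, 1.99, 1.84 and 1.5 in WT and 3.07, 3.45, 2.10 and 2.08 in tic40 (0.55, adjusted p = 0.158).

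The 3 genes of RNA binding and modification, AT3G09850, AT4G21770 and AT2G37510, had negative differences of -0.29, -0.51 and -0.17, and none passed. AT4G21770 was negative in both pairs of samples (-0.16 and -0.85). AT3G09850 was positive in samples 3 and 4 alone (0.19), and AT2G37510 in samples 1 and 2 alone (0.13). AT2G37510, which encodes a protein with an RNA recognition motif, stood at 5.48 ± 1.18 in WT, against 4.78 ± 0.147 for the mutant (SD, n = 4 each; limma adjusted p = 0.578).

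Of 6 genes for other proteins of plastids and mitochondria none passed, and their differences ran from -0.50 to 0.63 with a median of 0.02. AT3G47650, which encodes the plastid zinc finger chaperone BSD2, known from maize for its role in assembly of Rubisco, measured 2.5, 2.34, 1.19 and 1.16 in WT and 2.69, 2.56, 2.61 and 2.60 in tic40. All tic40 samples lay above WT. The log2 difference was 0.12 in samples 1 and 2 alone but 1.15 in the other pair (0.63 over all arrays, adjusted p = 0.217). FZL, a dynamin-related GTPase of plastid membranes, had levels of 1.93 ± 0.368 (WT) and 2.14 ± 0.0390 (tic40), a log2 difference of 0.17 (adjusted p = 0.548). CUTA, a metal-binding protein of plastids, was at 4.19 ± 0.480 and 3.45 ± 0.456 (-0.28, adjusted p = 0.295).

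For mitochondria, AT4G39690 encodes MIC60, a subunit of the complex that shapes the inner membrane, with levels of 3.99 ± 0.439 (WT) and 3.65 ± 0.185 (tic40), a log2 difference of -0.12 (adjusted p = 0.600). AT4G32060, which encodes the calcium uptake regulator MICU, stood at 2.36 ± 0.733 and 2.82 ± 0.0690 (0.31, adjusted p = 0.429).

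In signalling, transcription and protein turnover, 0 of 8 genes passed, with 4 positive and 4 negative differences and a median of -0.01. XERICO, a RING-H2 protein gene linked to abscisic acid and drought, measured 2.41, 2.45, 2.86 and 3.25 in WT and 3.42, 3.11, 3.02 and 3.20 in tic40 (0.23, adjusted p = 0.367). The kelch repeat F-box genes AT4G39760 and AT4G39570 differed by 0.00 and -0.09. The remaining members of this class, AT2G39360, AT3G04210, AT4G00870, AT3G12000 and AT5G40140, are described above.

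Of 4 genes for cell wall enzymes and glycosyltransferases none passed. Besides AT4G19900, AT4G18180 and AT1G35510, this class holds AT4G38040, an exostosin family gene at 2.81 ± 0.344 in WT and 2.56 ± 0.156 in tic40 (SD, n = 4 each; log2 difference -0.13, adjusted p = 0.607). In the class of transport, secretion and stress protection 1 of 3 was called lower, AT4G31470, a call lost with the replicate block. The aquaporin-like gene AT2G29870 had a difference of -0.19 (limma adjusted p = 0.622).

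Among 14 genes of other enzyme or domain families 1 was called higher, AT4G27250, and the median was 0.09. That call was lost with the replicate block. AT4G29890, a choline monooxygenase-like gene, measured 3.63, 3.52, 7.81 and 7.97 in WT and 6.15, 5.97, 5.87 and 5.40 in tic40, another gene with tic40 between the WT pairs. The rhodanese-like gene AT4G27700 (0.01) and the photolyase-domain gene AT4G25290 (0.00) had nearly equal means in both genotypes, with 95% intervals of -0.36 to 0.38 and -0.42 to 0.42. Of the 12 genes in the class of products not known 1 was called lower, AT1G62250, though not with the replicate block, and the median was 0.01. CCL, in this class, measured 4.07, 4.39, 4.90 and 7.75 in WT and 6.65, 8.24, 4.26 and 4.58 in tic40, with high arrays in both genotypes (0.16, adjusted p = 0.753).

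The direction of small differences rested on the scaling. Of the 55 genes, 33 had positive and 22 negative differences after quantile normalization, 31 and 24 as deposited, and 13 and 42 with arrays centred on the median, where the median of the 55 was -0.30 and that of all probes -0.02. As deposited, the median of all probes was 0.32. With median centring 8 of the 55 genes were called, all lower, against 1 higher and 2 lower after quantile normalization. They were AT1G62250, AT4G17070, AT4G31530, AT2G37510, AT3G52070, AT2G33180, AT4G21770 and AT5G40140. Of all 3318 probes, 237 were called with median centring, 78 higher and 159 lower.

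The other 277 probes at or above the threshold, which carry several names, none or a name left out, were called in 11.6% of cases, 16 higher and 16 lower. Single-gene probes below the threshold were called in 6.14%, with 9 higher and 28 lower of 603. The median absolute difference between genotypes was 0.24 for the 55 genes and 0.36 for all probes. No test was made of these differences between sets of probes.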

How the data were processed

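The deposited table gives 1 intensity per probe and array on a linear relative scale, from the values themselves. Which scanner, background correction and scaling the authors applied is not stated in the labels. The median deposited intensity was 0.354 to 0.604 over the 8 arrays, and 174 to 277 probes per array were listed at 0. Arrays have no sequencing depth, and their number limits the precision. The 4 values just under 100 on 2 arrays belong to none of the genes described.

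Intensities were quantile-normalised (limma 3.58.1, R 4.3.3), and zeros were set to percentile 1 of each array's values above 0 (0.0147 to 0.0665). Levels are these normalised intensities. Probes without any signal above 0 (121) did not enter. Log2 values were fitted with limma (lmFit, eBayes), with genotype as the only term, two-sided, with Benjamini-Hochberg adjustment. The procedure was run on simulated data with known changes. Their noise was independent between arrays and held no division of the WT pairs, so the simulation cannot show how the calls bear that division. Alternatives were a fit with the replicate block, no scaling, median centring, cyclic loess, other floors and filters, a variance trend, each pair of samples alone or averaged, and leaving out each sample.

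The genes, the classes and the tests were chosen with earlier results of these data known. Values per array are given for the 10 brightest genes, those called, the 5 largest differences each way, the 3 nearest the threshold and the 4 with the largest difference between WT pairs, and for further genes chosen after their values were seen. The planned classes were redrawn as 8 after the genes had been listed. RNA binding and modification, enzyme or domain families and other organelle proteins were not among those planned. Of 13 listed green tissue genes, 2 had a single-gene probe (PRK and SBPASE, neither among the 55), and of 3 root and 4 seed genes 0 had one, so tissue was not checked.

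Sample numbers occur in both genotypes. Deviations of same-numbered WT and tic40 samples from their genotype means correlated over all probes at 0.306, 0.310, 0.261 and 0.254, each above 0.1. For WT samples 1 to 4 against tic40 samples of other numbers, the highest values were 0.050, 0.030, 0.120 and 0.099. The fit with the replicate block is therefore given beside the calls. Over the 55 genes alone the same-numbered correlations were 0.120, -0.050, 0.045 and 0.024. Any pairing is read from the data and is not stated in the labels.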

Additional observations from a re-analysis of the deposited data

Results flagged for a closer look

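Dixon's test for a sample far from the other 3 of its genotype marked 3 of 110 sets of 4 arrays, where chance marks about 5%. AT4G17070 measured 40.8 in tic40 sample 1 and 36.3 in each of the others, which hold 1 rank and so receive 1 value. AT4G27700 measured 3.59 in WT sample 4, against 2.64 to 2.77 in the other WT samples. AT5G46560 measured 2.89 in tic40 sample 3, against 3.11 to 3.15 in the other tic40 samples.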

How the results depend on the processing

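Of the bright named genes, limma called 3 as reported, 0 with the replicate block, 8 with median centring, 5 with 1 common floor, 19 in samples 1 and 2 alone, 33 in samples 3 and 4 alone, 0 with these pairs averaged within each genotype (1 at an unadjusted p under 0.05, and 14 with the block), and 0 to 2 when 1 sample was left out. Over all probes, 255 were called, 5 with the replicate block (884 unadjusted), 237 with median centring and 299 with 1 common floor. The count was 154 with cyclic loess, 1012 and 2000 in the pairs alone, and 0 with the pairs averaged (184 unadjusted). When 1 sample was left out it was 43 to 240. Without scaling the split of all calls was 311 higher and 46 lower, against 77 and 178. The rule for bright genes gave 52 to 58 genes under other settings, 48 to 55 of them among the 55.

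Of the 55 genes, the sign of the difference turned in 20 with median centring, 6 as deposited, 6 with cyclic loess, 19 in samples 1 and 2 alone, 11 in samples 3 and 4 alone and 4 to 9 when 1 sample was left out. The 3 called genes kept theirs in all of these. Among the genes chosen by the naming rule, with median centring the log2 difference was -0.54 for AT2G27290, -0.60 for AT3G13150, -0.33 for AT3G26630 and -0.18 for AT1G51350. As deposited it was -0.19 for AT2G27290, -0.25 for AT3G13150 and 0.10 for AT3G12000, and with cyclic loess -0.10 for AT3G13150. In samples 1 and 2 alone it was 0.22 for AT4G17070, 0.36 for AT4G31530, -0.025 for AT4G35660, 0.34 for AT3G12000 and 0.041 for AT5G40140. In samples 3 and 4 alone it was -0.52 for AT2G27290, 0.19 for AT3G09850 and -0.13 for AT3G13150. With 1 sample left out in turn it ran from -0.16 to 0.27 for AT2G27290, from -0.23 to 0.024 for AT4G31530 and from -0.20 to 0.17 for AT3G12000. The cause was not tested.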

Other observations

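By their locus numbers, 19 of the 55 bright named genes lie on chromosome 4 (34.5%), against 17.8% of the 663 single-gene probes tested, and 7 lie on chromosome 1 (12.7%, against 24.7%). None of the 55 is the next gene to another of them in the TAIR10.1 gene table. This was noticed after the genes had been listed and was not tested.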
